A study of Mus musculus with 18 samples.

Results

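The genes described here encode the nuclear subunits of the respiratory chain and the ATP synthase, measured by RNA sequencing in osterix-derived cells of mice at postnatal day 21. Members were protein-coding genes whose symbols follow the numbered Nduf, Sdh, Uqcr, Cox and Atp5 names of structural subunits and that had at least 10 counts in at least 3 of 18 libraries. This rule used names and detection, and no comparison between groups. Cox7a1 alone passed through control libraries only, with 10 or more counts in 3 libraries and at most 12. The lower level of Cox7a1 in knockout cells is therefore partly set by the rule, and Cox7a1 is kept in the counts below. Of 82 gene IDs with such a symbol, 77 passed, out of 54446 gene IDs in the files. They are 36 subunits of complex I, 4 of complex II, 8 of complex III, 12 of complex IV (with Ndufa4, now counted there) and 17 genes of the ATP synthase (complex V). The 5 IDs below the minimum were Cox6a2, Cox7b2, Cox8b, Cox8c and a second ID of Atp5o, which had no counts.

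In the knockout groups Pth1r, whose product binds parathyroid hormone and its related peptide, had been deleted conditionally in osteoprogenitors, and the control mice were labelled wild type. In both genotypes 3 subsets of osterix-derived cells were sorted, with 3 libraries each. They are GFP-negative Tm-positive cells from marrow, labelled bone marrow stromal cells, and GFP-positive cells and GFP-negative Tm-positive cells from bone, both labelled bone cells. The Cre driver, the source of the GFP, what Tm stands for and whether the controls carried the Cre are not stated in the labels. Whether the 3 libraries of a group were separate animals is not stated either, so the p-values reflect the variation among these libraries, which may be technical.

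Complexes I to IV of the inner mitochondrial membrane pass electrons from NADH and succinate to oxygen. Complexes I, III and IV also pump protons, and the ATP synthase uses the proton gradient to make ATP. Most subunits are encoded in the nucleus, a few in mitochondrial DNA, and both kinds are needed for complete enzymes. Bone-forming cells use glycolysis and mitochondrial respiration in proportions that change as they mature. Nuclear respiratory factor 1 (NRF1), the ETS factor GABP and YY1 are known regulators of many of these genes.

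To show the sites by which these regulators are known, RefSeq promoters (GRCm38.p6, the build mm10) were searched from 250 bases before to 50 bases after the annotated start. Of the 77 members, 66 had a promoter in the table used. The NRF1 motif (GCGCN directly followed by TGCGC), on either strand, was in promoters of 17 of them (25.8%), against 7.17% of 17492 protein-coding genes. The ETS motif CCGGAAG was in 16 (24.2%, against 12.9%), the YY1 motif AAGATGGCG in 7 (10.6%, against 2.14%) and CCAAT in 29 (43.9%, against 42.3%). The motifs do not overlap in the printed windows, and a match is a description of the letters, not a bound site. Below are the 250 bases before the start of 4 members, 5′ to 3′ on the gene's strand, with matches to these 4 motifs in capitals. Sdhd (chr9:50603850-50604099, minus strand) and Cox6a1 (chr5:115348959-115349208, minus strand) hold both an NRF1 and an ETS motif, and Ndufb4 (chr16:37654369-37654618, minus strand) and Sdha (chr13:74350241-74350490, minus strand) each hold 3 NRF1 motifs.
Sdhd: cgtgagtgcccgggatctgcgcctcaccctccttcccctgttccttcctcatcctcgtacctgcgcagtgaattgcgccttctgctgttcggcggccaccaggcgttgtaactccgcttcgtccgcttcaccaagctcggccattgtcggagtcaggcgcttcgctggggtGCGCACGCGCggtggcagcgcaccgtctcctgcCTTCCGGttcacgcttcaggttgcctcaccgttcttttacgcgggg
Cox6a1: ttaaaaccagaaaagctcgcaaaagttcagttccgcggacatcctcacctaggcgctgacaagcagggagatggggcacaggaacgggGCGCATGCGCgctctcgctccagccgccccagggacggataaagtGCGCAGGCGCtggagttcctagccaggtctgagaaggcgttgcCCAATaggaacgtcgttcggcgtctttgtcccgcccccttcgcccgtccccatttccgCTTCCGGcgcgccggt
Ndufb4: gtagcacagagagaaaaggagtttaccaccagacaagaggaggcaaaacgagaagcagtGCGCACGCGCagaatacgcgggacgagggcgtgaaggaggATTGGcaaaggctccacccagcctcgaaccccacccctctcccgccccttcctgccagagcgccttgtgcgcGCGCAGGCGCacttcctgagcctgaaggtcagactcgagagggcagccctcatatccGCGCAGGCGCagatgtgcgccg
Sdha: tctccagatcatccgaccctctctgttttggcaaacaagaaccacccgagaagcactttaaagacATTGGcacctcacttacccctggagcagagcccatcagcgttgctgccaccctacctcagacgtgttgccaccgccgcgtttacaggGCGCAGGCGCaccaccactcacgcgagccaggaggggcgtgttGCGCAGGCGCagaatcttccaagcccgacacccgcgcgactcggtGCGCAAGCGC
The first 3 were among the genes called lower in every knockout subset, and Sdha was the core subunit that moved least, as given below.

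Total counts ran from 16443595 to 27160257 per library, and 15516 genes were tested. Pth1r itself averaged 342 ± 27.5 CPM in knockout marrow and 558 ± 20.4 CPM in control marrow (SD, n = 3 each). In GFP-positive bone it averaged 3337 ± 660 CPM in knockout and 4783 ± 281 CPM in control cells, and in GFP-negative bone 1188 ± 189 CPM in knockout and 1750 ± 138 CPM in control cells. The log2 changes were -0.70, -0.52 and -0.56 (edgeR quasi-likelihood F-test, adjusted p by BH = 0.000195, 0.00226 and 0.00145). These values are not adjusted for the trend with transcript length described below, and its part in them was not tested. Which exons were deleted is not given, and a transcript that keeps the other exons would still be counted. The source of the Pth1r counts that remain in knockout cells was not tested. The osterix lineage markers (Sp7, Runx2, Col1a1, Col1a2, Alpl, Ibsp, Bglap and Spp1) together took 97800 to 136000 CPM (unscaled, of all counts) in knockout marrow and 195000 to 264000 in control marrow, and 7 of the 8 were called lower. In GFP-positive bone they took 53500 to 71000 CPM in knockout and 44400 to 72800 in control cells (4 called higher, 1 lower), and in GFP-negative bone 393000 to 480000 in knockout and 286000 to 316000 in control cells (4 higher, 0 lower). Markers of marrow stroma (Cxcl12, Lepr and others) took 48500 to 60200 CPM in knockout marrow and 25900 to 38400 in control marrow. In bone these took 589 to 740 CPM in knockout and 354 to 397 in control GFP-positive cells, and 3210 to 3550 in knockout and 1170 to 1620 in control GFP-negative cells, with 6 and 7 of the 7 called higher. Chondrocyte markers (Col2a1, Acan, Col9a1, Matn3) took 233000 to 247000 in knockout and 98500 to 122000 in control GFP-positive bone (3 called higher, 1 lower). In GFP-negative bone they took 19100 to 21600 CPM in knockout and 26500 to 35800 in control cells (0 higher, 2 lower). In marrow they took 2400 to 2730 CPM in knockout and 1710 to 2110 in control cells (2 higher, 1 lower). Skeletal muscle markers, whose tissue has its own Cox isoforms, stayed at or below 21.6 CPM in every library, with Tnnc2 at 0 in all 18. Megakaryocyte markers reached 262 CPM in knockout marrow replicate 2 and at most 5.0 in the other 17 libraries. Erythroid markers took 34.7 to 468 CPM in knockout and 133 to 162 in control GFP-positive bone. In GFP-negative bone they took 16.9 to 56.1 and 19.7 to 470, and in marrow 38.5 to 63.2 and 73.7 to 135, with none called in any subset. Brown fat markers took 6.62 to 9.94 CPM in knockout and 1.27 to 2.84 in control GFP-positive bone (1 tested and called higher). Osteoclast markers (Acp5, Ctsk, Mmp9, Calcr) took 255 to 654 CPM in knockout and 646 to 847 in control marrow. In GFP-positive bone they took 125 to 140 in knockout and 166 to 240 in control cells, and in GFP-negative bone 329 to 415 and 450 to 515. Of the 3 osteoclast markers tested, 2, 2 and 1 were called lower in these subsets and 0 higher. The part of these marker differences in the results below was not tested.

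The members were lower as a group in all 3 knockout subsets. Their summed level, in CPM scaled by TMM, was 4246, 4016 and 4677 in the knockout marrow libraries, against 6499, 6745 and 6863 in control marrow. GFP-positive bone had 5732, 4864 and 5268 CPM in knockout cells, against 8796, 9561 and 9432 in controls. GFP-negative bone had 4717, 4159 and 4564 CPM in knockout cells, against 8062, 8161 and 8199 in controls. The groups did not overlap in any subset, and the ratio of knockout to control means was 0.644 in marrow, 0.571 in GFP-positive bone and 0.55 in GFP-negative bone. In bulk samples less RNA per cell and fewer cells of a type that is rich in these transcripts cannot be told apart.

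Gene by gene, 71 of 77 members were called lower in knockout marrow, 74 in knockout GFP-positive bone and 74 in knockout GFP-negative bone, and none was called higher (edgeR quasi-likelihood test, BH-adjusted p under 0.05 over all genes). Of all genes tested 24.8%, 25.3% and 25.7% were called lower in these subsets, and 23.1%, 26.0% and 21.5% higher. The members' median log2 change was -0.72 in marrow, -0.87 in GFP-positive bone and -0.94 in GFP-negative bone, against -0.04, 0.03 and -0.07 over all genes tested. All 3 knockout libraries lay below all 3 control libraries for 75, 74 and 74 members, and for 28.6%, 28.8% and 29.7% of all genes and 46.2%, 48.7% and 49.4% of 5371 genes of like transcript length. In all 3 subsets 69 of 77 members were called lower, against 14.0% of all genes and 27.3% of those of like length. The other 8 were Atp5g2, Atp5l, Atp5s, Cox6b2, Cox7a1, Ndufs1, Ndufv3 and Sdha. With libraries scaled by their totals alone, which moves the median of all genes to 0.09, -0.34 and -0.30, the members called lower were 65, 76 and 74 and none was called higher. Of 7052, 8566 and 7620 genes called on that scale 59.6%, 30.9% and 30.8% were higher.

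**Figure D1:**
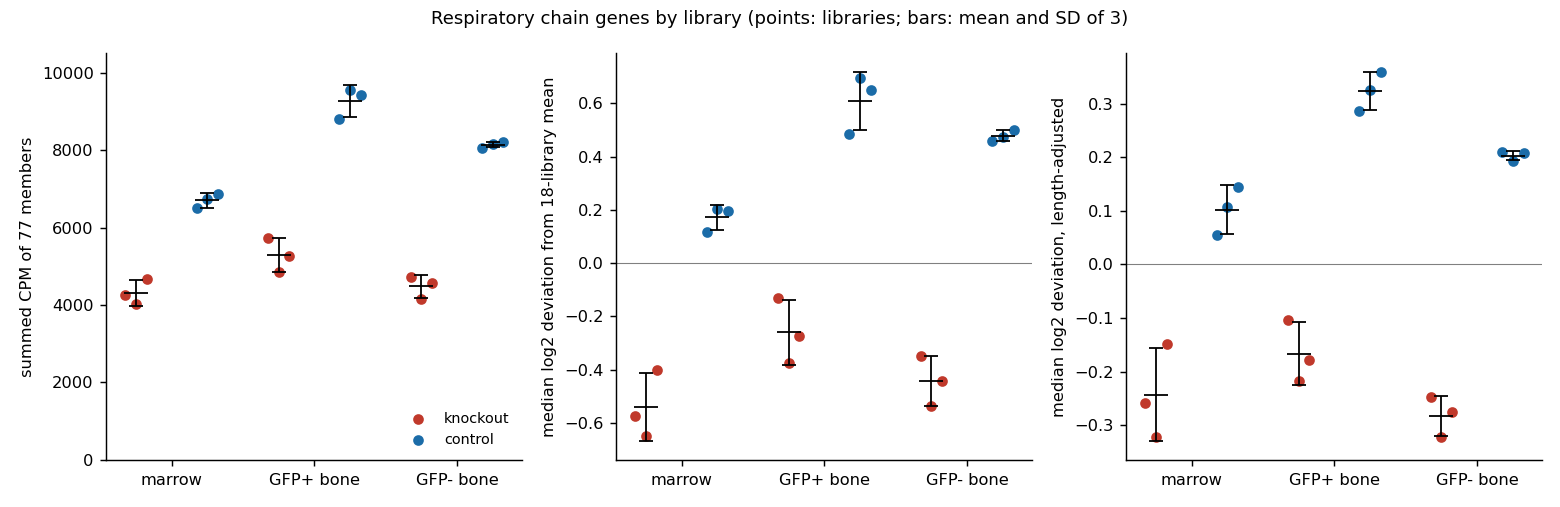
Summed TMM-scaled CPM of the 77 members (left), the median over members of the log2 deviation from each member's mean over 18 libraries (middle), and the same after removal of the transcript-length trend (right), per library with knockout (red) left of control (blue) in each subset and bars for the mean and SD of 3 libraries. In the left panel the highest knockout library of each subset lies below its lowest control library, for example 4677 against 6499 CPM in marrow.

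The members have short transcripts, and genes with short transcripts were on the whole lower in the knockout libraries. The longest annotated transcript of a member had a median of 1046 bases, with 10% of members below 597 bases and 10% above 2955. A smooth trend of level on transcript length, fitted per library on the other genes, was at -0.52 to -0.37 (log2) at 600 bases and 0.51 to 0.53 at 8000 bases in knockout marrow, against -0.05 to 0.02 and -0.33 to -0.21 in control marrow. GFP-positive bone showed -0.06 to 0.10 at 600 bases and 0.33 to 0.44 at 8000 bases in knockout, against 0.26 to 0.45 and -0.72 to -0.58 in control libraries. GFP-negative bone showed -0.27 to -0.14 and 0.40 to 0.51 in knockout, against 0.22 to 0.33 and -0.37 to -0.35 in control libraries. Knockout and control libraries did not overlap at either length in any subset. Whether the trend arose in the cells or in RNA quality, cDNA synthesis or sequencing cannot be told apart here, since it runs with genotype in every subset.

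Genes of like length were therefore set beside the members in 3 ways. Among 5371 protein-coding genes whose longest transcript lay between the members' 10th and 90th percentiles, 42.1% were called lower in knockout marrow, 44.6% in knockout GFP-positive bone and 44.3% in knockout GFP-negative bone, with median log2 changes of -0.36, -0.42 and -0.43. That band is wide, and the members' own 200 nearest neighbours in length lay lower, with a median of their medians of -0.60, -0.55 and -0.67. Against the median of its own neighbours, the log2 change was more negative for 58 members in marrow, 72 in GFP-positive bone and 68 in GFP-negative bone, by a median of 0.14, 0.30 and 0.26 on the log2 scale. With the trend removed from every library before the test, 54 of 77 members were called lower in knockout marrow, 68 in GFP-positive bone and 62 in GFP-negative bone, and none higher. In that test 20.2%, 21.6% and 20.1% of all genes were called lower and 19.1%, 20.8% and 17.5% higher, and 21.6%, 24.7% and 21.9% of the genes of like length were called lower. The median log2 change of the members was then -0.34, -0.50 and -0.46, against -0.06, -0.07 and -0.06 over the genes of like length. Lower in all 3 subsets were 52 members, against 9.33% of all genes and 8.29% of those of like length. Atp5g2, Atp5s, Cox6b2, Cox7a1, Ndufa6 and Sdha were called in none. Values from this test are called length-adjusted, or given as after adjustment. With the principal annotated transcript as length (median 809 bases over the members), a setting added after the data were seen, 47, 70 and 60 members were called lower. With a trend on both length and GC content 49, 64 and 63 were called lower, and in neither setting was any called higher.

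**Figure D2:**
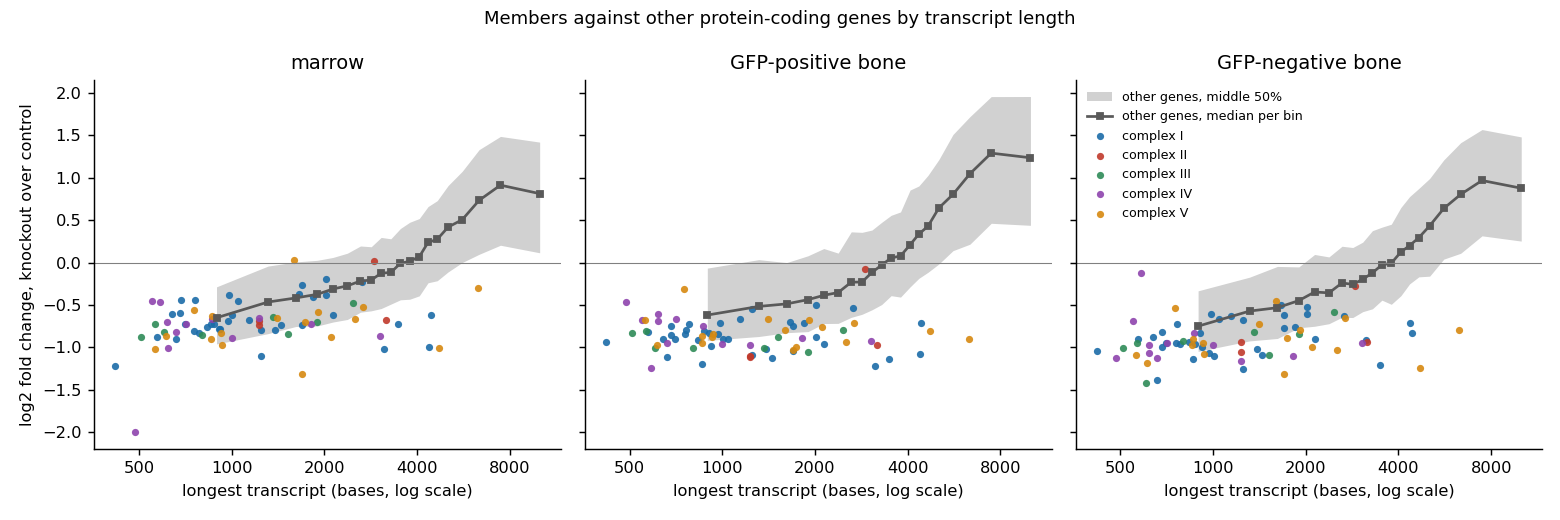
Log2 change of knockout against control by length of the longest transcript (log axis), per subset. Line and band give the median and the middle 50% of the other protein-coding genes in 20 bins of length, and points are the 77 members, most of which lie at short lengths and below the line (72 of 77 below their length neighbours in GFP-positive bone).

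The lower level ran through all 5 complexes. Called lower in knockout marrow were 34 of 36 complex I, 3 of 4 complex II, 8 of 8 complex III, 11 of 12 complex IV and 15 of 17 complex V genes, and after adjustment 21, 3, 8, 8 and 14. In knockout GFP-positive bone the counts were 36, 3, 8, 11 and 16, and after adjustment 33, 3, 8, 10 and 14. In knockout GFP-negative bone they were 36, 4, 8, 10 and 16, and after adjustment 28, 3, 8, 9 and 14. Of all genes 24.8%, 25.3% and 25.7% were called lower in the 3 subsets, and of those of like length 42.1%, 44.6% and 44.3%. After adjustment the shares were 20.2%, 21.6% and 20.1% of all genes and 21.6%, 24.7% and 21.9% of those of like length. The summed CPM of a complex in knockout over control cells was 0.589 (complex IV) to 0.752 (complex II) in marrow, 0.536 (complex III) to 0.603 (complex II) in GFP-positive bone and 0.507 (complex IV) to 0.599 (complex II) in GFP-negative bone. No complex had overlapping knockout and control sums in any subset.

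**Figure D3:**
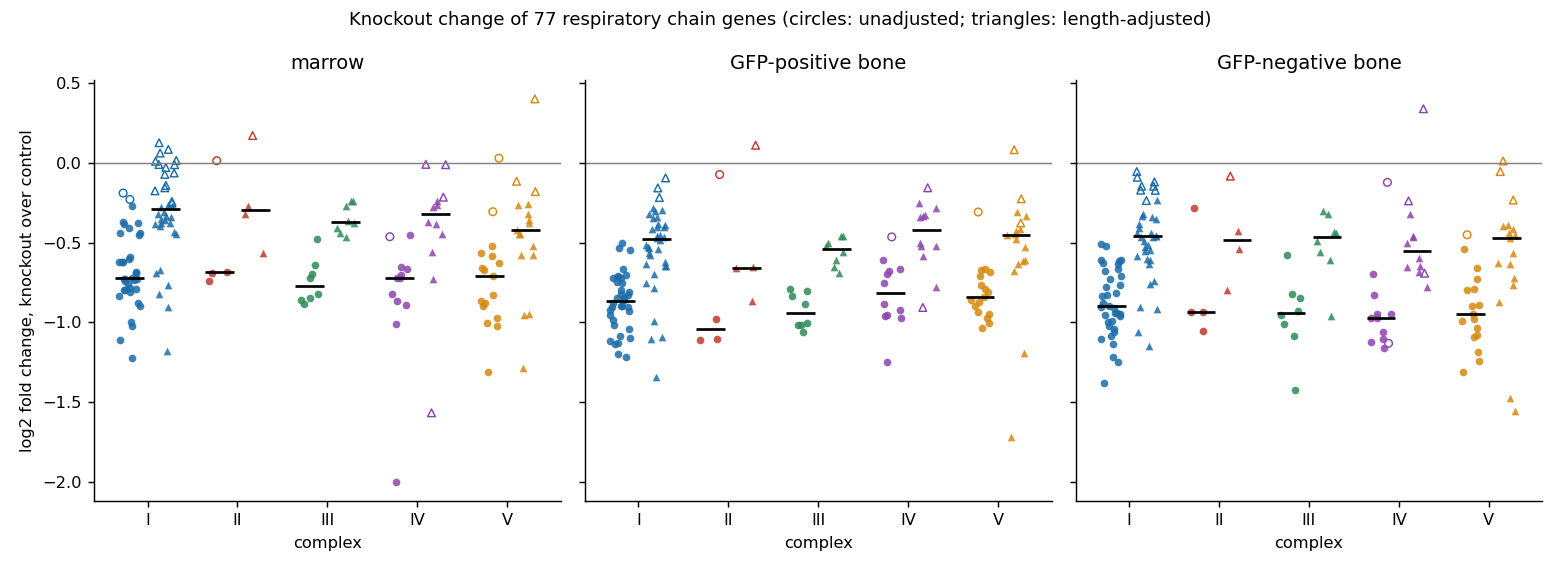
Log2 change of each member in knockout against control, by complex and subset. Circles are values without and triangles with adjustment for transcript length, filled where the BH-adjusted p was under 0.05 and open otherwise, and the bar is the median (-0.87 over all members without and -0.50 with adjustment in GFP-positive bone).

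Complex I takes electrons from NADH. Ndufs1, the largest iron-sulfur core subunit, had 70.9, 64.1 and 54.6 CPM in knockout marrow, against 73.4, 73.6 and 75.5 CPM in control marrow. The ranges did not overlap, but the change of -0.23 ± 0.10 (log2, SE) did not pass (edgeR adjusted p = 0.059), and the length-adjusted change was -0.03 (adjusted p = 0.832). In bone Ndufs1 fell, by 0.54 in GFP-positive and 0.63 in GFP-negative knockout cells on the log2 scale, and by 0.30 and 0.38 after adjustment (adjusted p = 0.0134 and 0.00364). Ndufv1, which binds the flavin that accepts the electrons, had 56.8, 45.7 and 53.1 CPM in knockout and 88.2, 81.9 and 83.0 CPM in control GFP-positive bone. Its length-adjusted change there was -0.30 ± 0.10 (edgeR, adjusted p = 0.0188), while the length-adjusted values of -0.01 in marrow and -0.05 in GFP-negative bone did not pass.

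Ndufa1, an accessory subunit needed to assemble the membrane arm, had 22.0, 23.4 and 24.4 CPM in knockout marrow, against 46.2, 64.4 and 52.0 CPM in control marrow. The change was -1.22 ± 0.13 (edgeR adjusted p = 4.73e-07), and -0.77 after adjustment. Ndufb6, another membrane-arm subunit, had 17.1, 15.6 and 16.4 CPM in knockout and 44.9, 39.7 and 43.5 CPM in control GFP-negative bone, with no overlap. It fell by 1.38 ± 0.10 there on the log2 scale and by 0.91 after adjustment (edgeR adjusted p = 7.1e-07). Ndufab1, the mitochondrial acyl carrier protein that is also part of complex I, had 30.6, 27.7 and 32.5 CPM in knockout and 66.8, 66.3 and 66.1 CPM in control GFP-positive bone, a change of -1.14 ± 0.10 and an length-adjusted one of -1.11 ± 0.10 (edgeR adjusted p = 7.59e-08). Ndufb4, another membrane-arm subunit and the one whose promoter is printed above, had 11.6, 12.1 and 12.6 CPM in knockout and 19.3, 19.6 and 19.6 CPM in control marrow. It fell by 0.69 on the log2 scale there (edgeR adjusted p = 6.66e-05), while its length-adjusted change of -0.24 did not pass (adjusted p = 0.0744). At the other end Ndufs4, an accessory subunit whose loss models Leigh syndrome in mice, had 36.1, 34.1 and 38.4 CPM in knockout and 43.7, 41.8 and 45.4 CPM in control marrow. Its change of -0.27 passed without adjustment (edgeR adjusted p = 0.0352) and became 0.09 with it (adjusted p = 0.506). Ndufv3, a small subunit beside the flavin site, had 38.7, 36.2 and 39.0 CPM in knockout and 39.4, 42.8 and 47.7 CPM in control marrow, and passed in marrow in neither test. Ndufa13 had 60.5, 50.3 and 50.8 CPM in knockout and 70.4, 83.5 and 82.2 CPM in control GFP-positive bone. Ndufb2 had 6.34, 8.47 and 8.36 CPM in knockout and 15.7, 15.1 and 15.1 CPM in control marrow. Ndufb7 had 34.6, 29.3 and 31.1 CPM in knockout and 54.9, 58.8 and 55.8 CPM in control GFP-negative bone.

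Complex II, succinate dehydrogenase, also works in the citrate cycle and is wholly nuclear-encoded. Sdha, its flavoprotein, stood apart from the other 3 subunits. It had 208, 208 and 217 CPM in knockout and 217, 193 and 218 CPM in control marrow, and 196, 183 and 181 CPM in knockout and 210, 192 and 187 CPM in control GFP-positive bone. Knockout and control libraries overlapped in both subsets, and the changes of 0.01 ± 0.08 and -0.07 ± 0.08 did not pass (edgeR adjusted p = 0.902 and 0.467). GFP-negative bone had 169, 157 and 148 CPM in knockout and 191, 191 and 193 CPM in control cells, a change of -0.28 (adjusted p = 0.00642) that became -0.08 after adjustment (adjusted p = 0.411). Its promoter window holds as many NRF1 motifs as that of Ndufb4. SDHA has near-identical copies in the human genome, and how reads with several matches were counted is not stated, so the level of Sdha and of any member with such copies in the mouse is uncertain.

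Sdhb, the iron-sulfur subunit, had 74.6, 65.3 and 63.4 CPM in knockout and 151, 145 and 144 CPM in control GFP-positive bone. Its length-adjusted change was -0.66 ± 0.08 there, -0.32 in marrow and -0.43 in GFP-negative bone (edgeR adjusted p = 3.62e-06, 0.00414 and 0.000419). Sdhd, a membrane anchor with an NRF1 and an ETS motif in its printed promoter, had 131, 114 and 119 CPM in knockout and 255, 266 and 263 CPM in control GFP-positive bone. In marrow it had 87.9, 85.3 and 98.4 CPM in knockout and 150, 145 and 143 CPM in control cells. The knockout libraries were the lower ones throughout, with length-adjusted changes of -0.66 in GFP-positive bone and -0.27 in marrow. Sdhc, the other anchor, had length-adjusted changes of -0.57, -0.87 and -0.80 in marrow, GFP-positive and GFP-negative bone, and passed in each.

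Complex III, which passes electrons to cytochrome c, has 8 measured subunits here. All 8 subunits were called lower in all 3 subsets, with and without adjustment. Uqcrc2, a core protein, had 61.0, 52.8 and 54.7 CPM in knockout and 114, 118 and 119 CPM in control GFP-positive bone, and its length-adjusted change there was -0.69 ± 0.07 (edgeR adjusted p = 5.23e-07). Uqcrc1, the other core protein, had 195, 174 and 186 CPM in knockout and 267, 261 and 244 CPM in control marrow, with an length-adjusted change of -0.24 (adjusted p = 0.0241). Uqcrfs1, the Rieske iron-sulfur protein, had 43.7, 44.3 and 49.1 CPM in knockout and 68.6, 78.9 and 66.3 CPM in control marrow, with an length-adjusted change of -0.24 ± 0.09 (edgeR adjusted p = 0.0456). The small subunit Uqcr11 reached the most negative value of the complex, with 31.0, 24.4 and 29.9 CPM in knockout and 75.8, 76.8 and 75.9 CPM in control GFP-negative bone. That is a change of -1.42 ± 0.14, and -0.96 ± 0.10 after adjustment (edgeR adjusted p = 1.07e-06).

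Complex IV, cytochrome c oxidase, has subunits with ubiquitous and with muscle or testis isoforms. Among the ubiquitous ones Cox6a1 had 93.2, 84.9 and 115 CPM in knockout and 175, 208 and 205 CPM in control marrow. Cox6a1 was the member with the highest level per kilobase of merged exons in the controls of all 3 subsets (280, 496 and 404 CPM per kilobase in marrow, GFP-positive and GFP-negative bone). This ranking depends on the length used, since Atp5b has 4237 bases of merged exons but a longest transcript of 1916. Its change was -1.01 in marrow, and -0.56, -0.33 and -0.60 in the 3 subsets after adjustment, each called. Cox5a had 22.6, 20.4 and 26.8 CPM in knockout and 48.8, 53.7 and 47.1 CPM in control GFP-negative bone, an length-adjusted change of -0.68 (edgeR adjusted p = 0.000153). Cox5b, its partner among the subunits around the catalytic core, had 35.7, 31.0 and 34.7 CPM in knockout and 59.4, 60.0 and 60.4 CPM in control GFP-negative bone, with length-adjusted values of -0.32 there, -0.34 in GFP-positive bone and -0.22 in marrow, of which the last did not pass (adjusted p = 0.056).

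Of the isoforms of other tissues, Cox6a2, Cox8b, Cox8c and Cox7a1 were at or near the detection limit in both genotypes. Cox6a2 and Cox8b, the heart and skeletal muscle forms, stayed at or below 0.503 and 0.207 CPM, and Cox8c, a testis form, had 0.0394 CPM in 1 library and 0 in the others. Cox7a1, the contractile-tissue form of subunit 7a, had 0.0966, 0 and 0.235 CPM in knockout and 0.299, 0.427 and 0.571 CPM in control marrow, which is a few counts per library. The ubiquitous Cox7a2 had 33.3, 34.1 and 41.3 CPM in knockout and 57.6, 65.8 and 68.3 CPM in control marrow, and length-adjusted changes of -0.37, -0.58 and -0.66 in the 3 subsets. Cox6b2, known from testis, had 2.22, 2.35 and 2.49 CPM in knockout and 3.18, 3.76 and 2.71 CPM in control marrow, and passed only in GFP-positive bone and only without adjustment (-1.25 ± 0.39, edgeR adjusted p = 0.0106). Cox6b1, the ubiquitous partner, had 61.3, 53.8 and 73.7 CPM in knockout and 96.6, 105 and 106 CPM in control marrow. Its length-adjusted changes were -0.26, -0.25 and -0.50, and it passed in each subset. Cox8a had 73.6, 63.6 and 90.3 CPM in knockout and 97.0, 99.4 and 115 CPM in control marrow, and passed with adjustment in GFP-positive bone (-0.33, adjusted p = 0.00867) but not in marrow (-0.01) or GFP-negative bone (-0.24, adjusted p = 0.055).

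In the ATP synthase, alpha and beta subunits form the catalytic head. Atp5b, the beta subunit that carries the active site and the member with the highest count, had 550, 528 and 616 CPM in knockout and 808, 835 and 900 CPM in control marrow. GFP-positive bone had 896, 777 and 873 CPM in knockout and 1332, 1368 and 1360 CPM in control cells, and GFP-negative bone 625, 586 and 632 CPM in knockout and 1059, 1094 and 1055 CPM in control cells. No group overlapped its control, and the length-adjusted changes were -0.26, -0.31 and -0.40 (edgeR adjusted p = 0.0163, 0.00444 and 0.000665). Atp5a1, the alpha subunit, had 398, 358 and 390 CPM in knockout and 633, 626 and 616 CPM in control GFP-positive bone, with length-adjusted changes of -0.32, -0.48 and -0.42 in marrow, GFP-positive and GFP-negative bone. Atp5e, the epsilon subunit of the central stalk, had 26.1, 24.9 and 31.4 CPM in knockout and 62.3, 72.4 and 69.4 CPM in control marrow, a change of -1.31 ± 0.13 and an length-adjusted one of -0.95 ± 0.13 (edgeR adjusted p = 1.04e-05).

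The 3 genes for subunit c encode the same mature protein of the membrane rotor with different import sequences. Atp5g1 had 44.4, 41.3 and 54.0 CPM in knockout and 91.5, 95.9 and 92.9 CPM in control marrow, and length-adjusted changes of -1.29 ± 0.12, -1.19 ± 0.12 and -1.56 ± 0.12 in the 3 subsets (edgeR adjusted p = 2.87e-07, 3.68e-07 and 3.82e-08). Atp5g3, with the most transcript per kilobase of the 3 in controls (87.2, 102 and 80.7 CPM per kilobase), had 114, 110 and 145 CPM in knockout and 192, 189 and 189 CPM in control marrow. Its length-adjusted changes were -0.18, -0.53 and -0.39, of which the first did not pass (adjusted p = 0.118). Atp5g2 had 29.2, 22.1 and 27.5 CPM in knockout and 28.8, 35.7 and 32.9 CPM in control GFP-positive bone, where the groups overlapped, and passed in no subset after adjustment (-0.12, 0.08 and -0.05). Whether the 3 genes differ from each other was not tested.

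**Figure D4:**
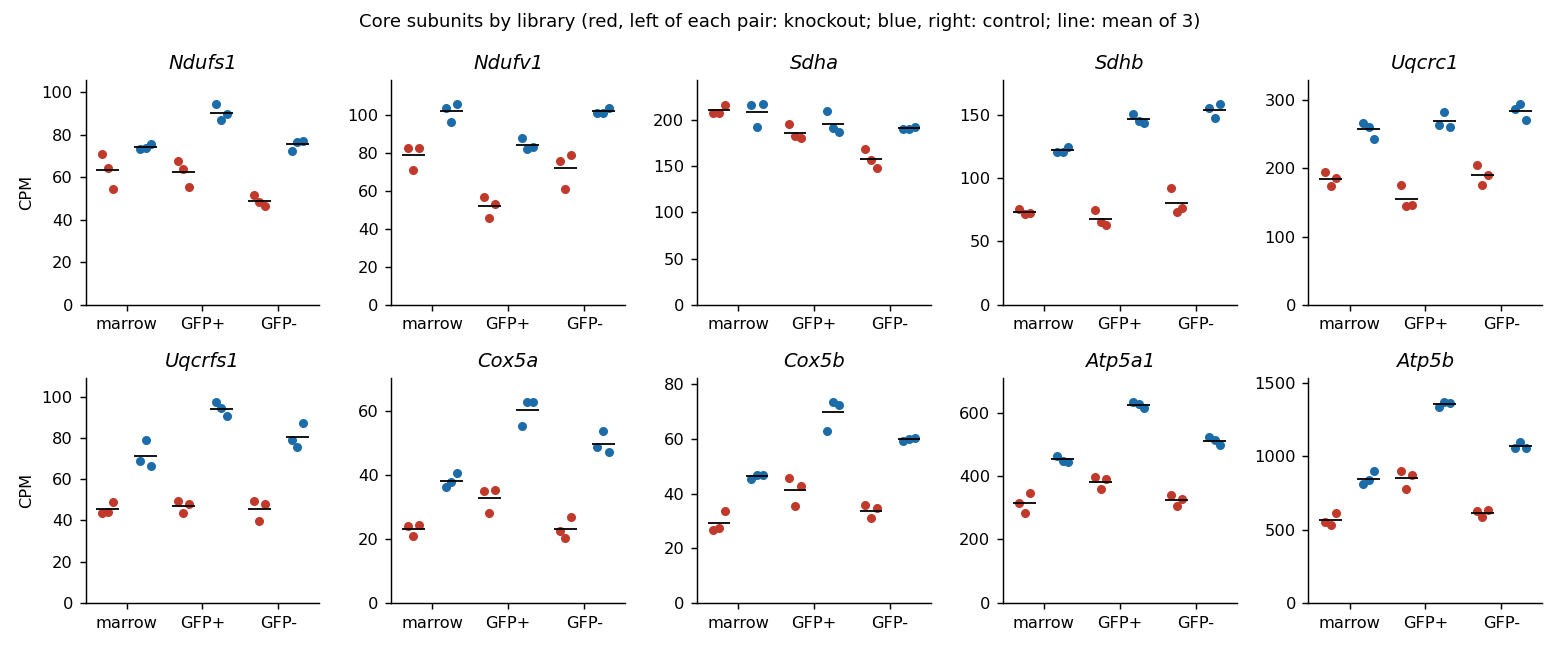
TMM-scaled CPM of 10 core subunits in each library, knockout (red) left of control (blue) in marrow, GFP-positive and GFP-negative bone. Sdha overlaps between the genotypes in marrow and GFP-positive bone, while Sdhb, Uqcrc1, Uqcrfs1, Cox5a, Cox5b, Atp5a1 and Atp5b are lower in every knockout library of each subset.

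Some length-adjusted values depend on which transcript sets a gene's length. Atp5l, subunit g of the ATP synthase membrane part, has a longest annotated transcript of 6310 bases and a principal one of 544. It had 13.7, 13.1 and 12.2 CPM in knockout and 21.5, 24.2 and 27.2 CPM in control GFP-positive bone, a change of -0.90 that became -1.72 with the longest and -0.53 with the principal length, a setting added after the data were seen. In marrow its length-adjusted value was -0.95 with the longest length and 0.16 with the principal one (edgeR adjusted p = 2.69e-05 and 0.35). Ndufb2 in GFP-negative bone (-0.92 and -0.23) and Ndufb7 in marrow (-0.83 and -0.15), both complex I membrane-arm subunits, likewise lost their calls with the principal length, as did Atp5l in GFP-negative bone (-1.48 and -0.30, the second with adjusted p = 0.0901). For Atp5g1 (4715 bases) and Ndufab1 (3479 bases) the longest and the principal length are the same. This setting therefore changed only the fitted trend for them and could not test the choice of transcript. Their values with it were -1.40, -1.35 and -1.70, and -0.79, -1.27 and -1.29 in the 3 subsets. Other members also have a longest transcript well above the principal one, such as Atp5e (1697 and 421 bases), Cox5a (1818 and 645) and Cox6c (3038 and 503). Their length-adjusted values and length neighbours carry the same uncertainty.

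Atp5s, a coupling factor rather than a structural subunit, had 12.3, 11.1 and 8.83 CPM in knockout and 12.7, 9.92 and 9.05 CPM in control marrow. The groups overlapped in marrow and the change of 0.03 did not pass. In GFP-positive bone Atp5s had 4.7, 5.72 and 7.41 CPM in knockout and 10.5, 7.45 and 12.5 CPM in control cells. The groups did not overlap there, with a change of -0.79. They overlapped in GFP-negative bone (-0.45), and after adjustment Atp5s passed in no subset. Over the 77 members, Spearman's rho between the length-adjusted changes of marrow and GFP-negative bone was 0.80, of GFP-positive and GFP-negative bone 0.59 and of marrow and GFP-positive bone 0.48. These are descriptions over genes that share libraries and are not independent.

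The question whether the change differed between subsets was put to the difference of the log2 changes. In GFP-positive bone against marrow 10 members were called more negative and none less (edgeR, BH-adjusted), against 7.6% of all genes called lower and 10.8% higher, and 11.0% of those of like length lower, with a median difference of -0.16. After adjustment 13 were called lower, against 8.89% of all genes lower and 9.93% higher and 10.6% of those of like length lower. GFP-negative bone against marrow gave 4 members lower, against 3.31% of all genes lower and 4.49% higher and 4.67% of those of like length lower, with a median of -0.22. After adjustment it gave 4, against 3.12% of all genes lower and 4.86% higher and 3.72% of those of like length lower. Between GFP-positive and GFP-negative bone none was called with or without adjustment (1.11% of all genes lower, 4.98% higher and 1.32% of those of like length lower without it, 1.57%, 4.27% and 1.73% with it). Of the members, 5 and 9 had an unadjusted p under 0.05, and DESeq2 called 1. A block for the replicate number called 2 higher there without the length adjustment and 0 with it. The same block without adjustment called 15 lower and 1 higher in GFP-positive bone against marrow, and 8 lower in GFP-negative bone against marrow. With library totals as the scale 67 members were called lower in GFP-positive and 62 in GFP-negative bone against marrow. All genes shifted too on that scale, with medians of -0.462 and -0.415. Of 5676 and 3735 genes called, only 13.5% and 10.9% were higher. A fit of only the libraries compared gave 4 and 0 members, so these counts of members depend on the scaling and on the libraries fitted. They also rest on single libraries. GFP-positive bone against marrow gave 1 to 5 calls without replicate 1 or 2 of control marrow, 2 or 3 of control GFP-positive bone, 1 or 3 of knockout marrow, or 2 or 3 of knockout GFP-positive bone. GFP-negative bone against marrow gave 1 to 2 without any library of control marrow or control GFP-negative bone, replicate 1 of knockout marrow, or replicate 2 or 3 of knockout GFP-negative bone.

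The genes with the smallest p were Sdhd (-0.42 ± 0.11, edgeR adjusted p = 0.0152), Ndufv3 (-0.69 ± 0.19, adjusted p = 0.0172) and Uqcrc2 (-0.37 ± 0.11, adjusted p = 0.0244) for GFP-positive bone against marrow. For GFP-negative bone against marrow they were Ndufs8 (-0.48 ± 0.12, adjusted p = 0.0143), an iron-sulfur core subunit of complex I, Ndufb6 (-0.48 ± 0.14, adjusted p = 0.0365) and Ndufab1 (-0.49 ± 0.14, adjusted p = 0.0434). Ndufs8 had 42.5, 36.8 and 37.8 CPM in knockout and 84.8, 82.8 and 83.6 CPM in control GFP-negative bone, against 45.3, 44.7 and 47.3 CPM in knockout and 67.9, 71.9 and 71.1 CPM in control marrow. For Ndufs8 the control libraries were higher in bone than in marrow and the knockout libraries lower. All 6 passed after adjustment for length too. Between the bone subsets Atp5g1 (0.43, adjusted p = 0.119), Cox6a1 (0.37, adjusted p = 0.212) and Uqcr11 (0.41, adjusted p = 0.242) came nearest and did not pass.

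Without the knockout the subsets differed from each other as well. In control GFP-positive bone 54 members were higher and 4 lower than in control marrow, against 29.8% and 33.0% of all genes, with a median log2 difference of 0.43, and after adjustment 39 were higher and 6 lower (33.0% and 29.2% of all genes). Of the genes of like length 36.9% were higher, and 36.6% after adjustment. Cox7a2 (1.10), Atp5g1 (1.05), Ndufab1 (0.88) and Sdhd (0.84) were among the higher ones, and Cox6b2 (-0.83), Cox7a1 (-1.72), Ndufs7 (-0.30) and Ndufv1 (-0.27) were the lower ones. Cox7a1 had at most 12 counts in a library and became a member through control libraries only. Sdha did not pass (-0.09, edgeR adjusted p = 0.322). Control GFP-negative bone had 44 members higher and 1 lower than control marrow (21.1% and 18.2% of all genes, 28.9% of those of like length higher), with a median of 0.33. After adjustment 19 were higher and 5 lower (20.1% and 18.1% of all genes, 23.3% of those of like length higher). With library totals as the scale 6 were higher and 9 lower, and of 6581 genes called 27.6% were higher. The direction in that comparison thus depended on the scaling. The 24 adjusted calls became 14 without control marrow replicate 1. Control GFP-positive against GFP-negative bone gave 24 higher and 2 lower (18.2% and 21.8% of all genes, 22.3% of those of like length higher). After adjustment it gave 29 and 3 (24.5% and 18.2%, 27.8% of those of like length higher). With library totals it gave 49 and 0, where of 6631 genes called 62.1% were higher. The 26 calls became 13 to 17 without replicate 2 or 3 of control GFP-positive bone or any library of control GFP-negative bone.

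Other genes of the same machinery were taken from lists of the pathway. The 8 tested subunits and relatives outside the name rule were all called lower in each knockout subset, 7, 6 and 6 of them after adjustment. Of all genes 24.8%, 25.3% and 25.7% were called lower, and 20.2%, 21.6% and 20.1% after adjustment. Ndufa4l2, a relative of Ndufa4 known as a hypoxia-induced inhibitor of respiration, averaged 24.1 ± 6.06 CPM in knockout and 122 ± 8.43 CPM in control GFP-negative bone, and 56.3 ± 9.67 CPM in knockout and 412 ± 36.4 CPM in control GFP-positive bone. Cox4i2, the hypoxia-regulated isoform of subunit 4, averaged 3.96 ± 0.141 CPM in knockout and 16.5 ± 2.46 CPM in control marrow, and 7.32 ± 1.22 CPM in knockout and 34.2 ± 1.44 CPM in control GFP-negative bone. Without adjustment both changed more than any member in each subset, with log2 changes of -2.47, -2.87 and -2.35 for Ndufa4l2 and -2.06, -1.62 and -2.23 for Cox4i2 in the 3 subsets. Cox4i1, the common isoform, changed by -0.76, -0.65 and -0.66.

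The subunits encoded in mitochondrial DNA did not fall with the nuclear ones in bone. How reads with several matches were counted is not stated, so the level of these subunits is uncertain too. Of 13, 10 had enough counts to be tested. Called higher were 6 of these in knockout GFP-positive bone and 3 in knockout GFP-negative bone, with none lower and median log2 changes of 0.52 and 0.27. In knockout marrow 4 were lower and none higher (median -0.33, and 2 lower without knockout marrow replicate 3). Of all genes 26.0% and 21.5% were called higher in the bone subsets and 24.8% lower in marrow. The 3 of 10 in GFP-negative bone thus lie near the background. After adjustment for length 1, 10 and 9 were called higher in marrow, GFP-positive and GFP-negative bone and none lower. Of all genes 19.1%, 20.8% and 17.5% were then called higher, so the marrow count is not above the background. With library totals the counts higher were 0, 1 and 2 and the medians -0.19, 0.14 and 0.03, so a higher level in bone depended on the scaling, and 1 was called lower in marrow. The catalytic subunit mt-Co1 averaged 455 ± 67.2 CPM in knockout and 238 ± 26.1 CPM in control GFP-positive bone, and 753 ± 78.4 CPM in knockout and 460 ± 52.5 CPM in control GFP-negative bone. Cytochrome b, mt-Cytb, averaged 326 ± 64.4 CPM in knockout and 457 ± 45.3 CPM in control marrow (-0.49, edgeR adjusted p = 0.00632). Mitochondrial protein-coding transcripts made up 0.108 to 0.136% of all counts in knockout and 0.125 to 0.139% in control marrow, 0.106 to 0.141% in knockout and 0.102 to 0.114% in control GFP-positive bone, and 0.166 to 0.231% in knockout and 0.187 to 0.218% in control GFP-negative bone, and these ranges overlap.

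Genes for building the complexes were counted in the same way. Of 41 assembly factors 23, 37 and 31 were called lower in knockout marrow, GFP-positive and GFP-negative bone, and 9, 31 and 22 after adjustment, when 3 were called higher in marrow. All genes called lower made up 24.8%, 25.3% and 25.7%, and 20.2%, 21.6% and 20.1% after adjustment, so the 9 of 41 in marrow lie near the background. Coa3, needed to translate and assemble cytochrome c oxidase, averaged 17.5 ± 3.84 CPM in knockout and 49.5 ± 1.23 CPM in control GFP-positive bone, and Uqcc2, an assembly factor of complex III, 13.7 ± 1.27 CPM in knockout and 36.6 ± 2.18 CPM in control marrow. Of 77 mitochondrial ribosomal protein genes 60, 76 and 72 were called lower, and 34, 69 and 55 after adjustment. Cytosolic ribosomal protein genes, whose longest transcripts have a median of 1059 bases, much like the members, were called lower in 75, 53 and 54 of 77 cases. After adjustment they split, with 0 higher and 46 lower in knockout marrow, 7 higher and 16 lower in GFP-positive bone and 14 higher and 12 lower in GFP-negative bone, and medians of -0.35, -0.01 and 0.03, against -0.34, -0.50 and -0.46 for the members.

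**Figure D5:**
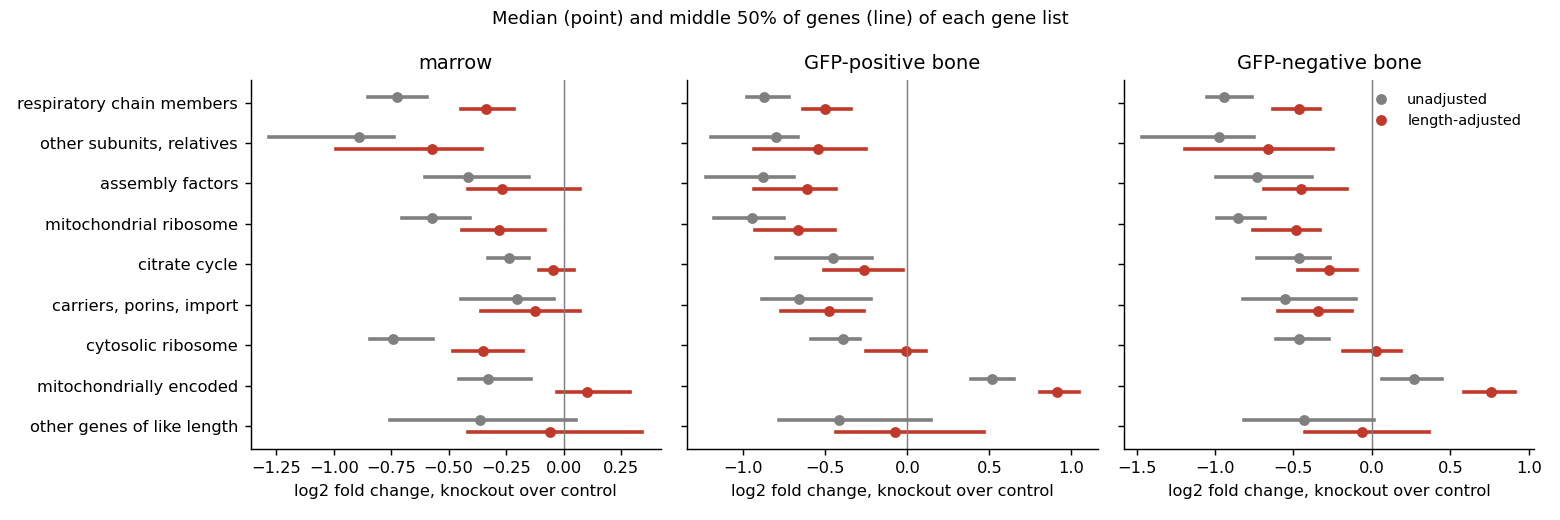
Median (point) and middle 50% (line) of the log2 change of knockout against control for each gene list and subset, without (grey) and with (red) adjustment for transcript length. In both bone subsets the length-adjusted members lie below zero, cytosolic ribosomal protein genes near zero (-0.01 and 0.03) and mitochondrially encoded subunits above it (0.91 and 0.76).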

How the data were processed

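Raw counts per gene were deposited by the authors, one file per library, made with featureCounts per the file headers. The submitters' processing notes also name STAR, DESeq2 and mm10, with no versions. Per the labels' protocols, libraries were made from sorted-cell RNA (RNeasy Plus Micro) with SMART-Seq v4 and SMARTer ThruPLEX reagents. Strand use and the treatment of reads with several matches are not given in the sources used here. Of 54446 gene IDs, 54409 matched a symbol of an mm10 annotation, which also gave transcript lengths.

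From the counts, 15516 genes kept by filterByExpr (minimum count 10, minimum total 15) were fitted with edgeR 4.0.16 in R 4.3.3 (limma 3.58.1). Libraries were scaled by TMM, all 18 entered 1 model of 6 group means with 12 residual degrees of freedom, and the quasi-likelihood F-test was robust and two-sided, adjusted by BH over the genes tested, with 0.05 as threshold. CPM values are scaled by TMM except marker sums and shares, which are of all counts. The SE of a log2 change is approximate. The length adjustment entered as an offset per gene and library, a lowess curve (span 0.3) of the deviation of log2 CPM (prior count 2) on log2 length of the longest transcript, fitted without the members. A gene at 0 may be present at up to 3 counts, and intervals of this kind cover counting error only. Alternatives were no filter, library totals, DESeq2 1.42.0, other lengths, GC content, a fit of only the libraries compared, a block for the replicate number and leaving out each library. The fits were tested on simulated data.

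Libraries of a group differed by more than sampling noise in every pair (14.9 to 55.9 for chi-square over its degrees of freedom), so all were kept apart. Members, lists and tests were chosen with earlier results of these data known. Values per library are given for the 4 lowest and 4 highest adjusted changes of each subset, tissue isoforms, core subunits, the 3 members with the smallest p in each difference between subsets, and from other lists at most 4 genes with the smallest p. Other members named were chosen after their values were seen.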

Additional observations from a re-analysis of the deposited data

Results flagged for a closer look

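For 6 members the knockout change differed between subsets by the test of the difference itself (edgeR quasi-likelihood test, BH-adjusted p under 0.05). The log2 change was more negative in GFP-positive bone than in marrow by -0.419 for Sdhd, -0.689 for Ndufv3 and -0.365 for Uqcrc2. It was more negative in GFP-negative bone than in marrow by -0.483 for Ndufs8, -0.482 for Ndufb6 and -0.488 for Ndufab1. Only the 3 members with the smallest p of each comparison were looked at in this way. In all, 10 of 77 members were called for GFP-positive bone against marrow, where 7.6% of all genes and 11.0% of those of like transcript length were called lower. For GFP-negative bone against marrow 4 were called, beside 3.31% and 4.67%. These shares of members are near those of genes of like length, and without single libraries as few as 1 call was left in either comparison.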

How the results depend on the processing

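The count of members called lower kept its direction in all 3 knockout comparisons under every setting, and none was called higher. Without 1 library it ran from 68 to 72 in marrow, 72 to 74 in GFP-positive bone and 73 to 74 in GFP-negative bone (adjusted 43 to 56, 63 to 69 and 61 to 63), and 68 and 43 are without knockout marrow replicate 2, the library with megakaryocyte markers. Medians then ran from -0.767 to -0.685, -0.917 to -0.81 and -0.964 to -0.872 (adjusted -0.377 to -0.326, -0.543 to -0.485 and -0.538 to -0.458).

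With the length offset the knockout medians were -0.336, -0.502 and -0.464, and control differences were 0.253 for GFP-positive bone against marrow and 0.105, with 24 called, for GFP-negative bone against marrow. With library totals the knockout medians were -0.583, -1.258 and -1.184. The difference from marrow then gave 67 calls (median -0.682) in GFP-positive and 62 (-0.598) in GFP-negative bone, beside medians of -0.462 and -0.415 over all genes. The median between bone subsets was -0.064. Control medians were 0.335, 0.05 with 15 calls and 0.341 with 49 calls. With no filter the GFP-negative knockout median was -0.861, GFP-negative bone minus marrow gave 0 calls, the median between bone subsets was -0.042 and that of the control bone subsets 0.234. Fits of only the libraries compared gave 4 and 0 calls (median -0.124) for the differences from marrow and a control median of 0.292 for GFP-negative bone against marrow. DESeq2 gave -0.838 for GFP-negative knockout bone, -0.13 for its difference from marrow, 1 call between bone subsets, and control medians of 0.283 for GFP-negative bone against marrow and 0.254, with 40 calls, between bone subsets.

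Merged exon length gave an adjusted median of -0.516 in GFP-negative knockout bone and control medians of 0.341, 0.157 and 0.213. Length with GC content gave 2 calls for GFP-negative bone minus marrow and control medians of 0.197 for GFP-positive bone against marrow and 0.108 between bone subsets. Principal transcript length, a setting chosen after seeing the data, gave control medians of 0.142, 0.043 and 0.109. Ndufs4 in marrow turned to 0.085 with the length offset, and Atp5l in marrow to 0.159 with the principal length. The cause of these shifts was not tested.

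Leaving out 1 library, calls ran from 1 to 14 (adjusted 4 to 14) for GFP-positive bone minus marrow, 1 to 6 (1 to 4) for GFP-negative bone minus marrow and 0 between bone subsets, with medians from -0.24 to -0.084 (-0.261 to -0.141), -0.26 to -0.15 (-0.196 to -0.111) and 0.011 to 0.114 (-0.048 to 0.021). In controls calls ran from 51 to 56 (42 to 46), 31 to 41 (14 to 23) and 13 to 21 (22 to 26), with medians from 0.387 to 0.484 (0.199 to 0.29), 0.275 to 0.345 (0.106 to 0.136) and 0.127 to 0.209 (0.164 to 0.2). The lowest adjusted count, 14, is without control marrow replicate 1, and 13 is without control GFP-negative bone replicate 2.

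Same-numbered libraries did not deviate together in every pair (correlations -0.063 to 0.083 between genotypes, 0.032 to 0.119 between control and 0.097 to 0.206 between knockout subsets), so the numbers were not used as pairs, although all 3 pairs of GFP-negative knockout bone with each other knockout subset were over 0.1. Within each genotype all of these correlations were above 0. Whether same-numbered subsets came from the same animals is not stated, so a pairing may exist that the main test leaves out. A replicate block gave 16, 8 and 2 calls in the differences between subsets, and moved no other count by over 1.5 times. Each group has 3 libraries.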

Other observations

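Neighbouring mitochondrial pathways were counted against all genes, of which 24.8%, 25.3% and 25.7% were called lower in knockout marrow, GFP-positive and GFP-negative bone, and 20.2%, 21.6% and 20.1% after adjustment for transcript length. Of 17 genes of the citrate cycle and pyruvate dehydrogenase, 9, 12 and 12 were called lower in these subsets and 1, 2 and 0 higher, and after adjustment 2, 8 and 10 lower and 2, 2 and 0 higher. In marrow the adjusted share was thus not above the background. Suclg1, a subunit of succinyl-CoA ligase, averaged 49.0 ± 6.9 CPM in knockout and 110 ± 3.11 CPM in control GFP-positive bone (SD, n = 3 each). Idh3a, of the NAD-dependent isocitrate dehydrogenase, averaged 49.3 ± 6.89 CPM in knockout and 100 ± 10.2 CPM in control GFP-negative bone. Of 22 genes for carriers, porins and import, 11, 16 and 15 were called lower and 1, 2 and 2 higher, and after adjustment 8, 17 and 15 lower and 1, 0 and 0 higher. Vdac3, a porin of the outer membrane, averaged 60.9 ± 1.05 CPM in knockout and 121 ± 5.64 CPM in control marrow, and Timm23, the channel of the import complex, 53.5 ± 2.9 CPM in knockout and 110 ± 4.4 CPM in control GFP-positive bone.

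Of 13 regulators of mitochondrial genes, 5, 3 and 3 were called higher and 1 lower in each subset, and after adjustment 2, 2 and 4 higher and 2, 3 and 1 lower. Of all genes 23.1%, 26.0% and 21.5% were called higher, and 19.1%, 20.8% and 17.5% after adjustment, so most of these counts are near the background. Pprc1, a relative of the coactivator PGC-1, averaged 70.9 ± 8.82 CPM in knockout and 25.6 ± 5.03 CPM in control GFP-positive bone, and kept its call after adjustment (0.92, edgeR adjusted p = 3.1e-05). Gabpa, whose protein binds the ETS motif, averaged 45.5 ± 2.95 CPM in knockout and 26.5 ± 2.59 CPM in control GFP-positive bone, an adjusted change of 0.31 that did not pass (adjusted p = 0.0684). Tfam, which packages and transcribes mitochondrial DNA, averaged 11.9 ± 1.53 CPM in knockout and 20.7 ± 2.29 CPM in control GFP-positive bone, an adjusted change of -0.99 (edgeR adjusted p = 7.19e-06).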
